A study of Mus musculus with 32 samples.

Results

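The 10 genes described here belong to bone morphogenetic protein (BMP) signaling and were measured in 32 RNA-seq libraries of MC38, a mouse cell line labelled as colon adenocarcinoma. The genes were chosen by name, as rows of a table of 22329 genes: the 4 Id genes Id1, Id2, Id3 and Id4, the ligands Bmp2 and Bmp4, the receptors Bmpr1a and Bmpr2, the inhibitory SMAD Smad6 and the secreted antagonist Grem1. Lower Id1 in tumors than in culture was part of that choice, so every value that sets tumors against culture is given here as a description, without a test. The libraries formed 4 groups: 12 subcutaneous tumors of MC38-resistant cells, 13 subcutaneous tumors of MC38 parental cells, 5 libraries of cultured MC38-resistant cells and 2 of cultured MC38 parental cells. The resistant line resists antibodies against PD-1, an inhibitory receptor of T cells. Both lines were grown under the skin of C57BL6/J mice that received no treatment, and the cultured cells were untreated too. The labels used here do not say how the resistant line was derived or whether it is 1 clone. They also do not say whether the libraries of a culture group came from separate cultures. P-values between the culture groups thus measure only the spread between these libraries. Those between the tumor groups measure the spread between tumors of 1 resistant and 1 parental line. Library titles begin with GPN for every tumor and with MJ for every culture, and what these series stand for is not stated. A difference between tumors and culture cannot be told apart from one between the series. Among tumors, the title numbers of the 2 lines lie in separate blocks. A difference between the lines in tumors cannot be told apart from one between these blocks, and this holds for the interaction too.

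BMPs are secreted ligands of the TGF-beta superfamily. They bind pairs of type I and type II receptor kinases, which phosphorylate SMAD1, SMAD5 and SMAD9, and these enter the nucleus with SMAD4. Id1, Id2 and Id3 are among the most direct transcriptional targets; Id proteins have no DNA-binding region and hold E proteins, a class of helix-loop-helix transcription factors, away from DNA. Smad6 is also a BMP target and feeds back on the receptors, while Grem1 (gremlin) captures BMP2 and BMP4 outside the cell. In the gut BMP signaling is known for its opposition to stem cell renewal at the crypt base, where stromal cells secrete gremlin.

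Values are TPM, a measure of transcript abundance scaled to transcript length and library total. Sequence of the 250 bases before the annotated start was at hand for 8 of the 10 genes, from RefSeq on mouse build GRCm38.p6. Short motifs were searched on both strands: GGCGCC, a GC-rich element known from Id promoters as a place where SMAD1 and SMAD5 bind, and CAGAC, the SMAD box, whose reverse complement reads GTCTG. The first element was found in 5 of the 8 promoters (Id2, Id4, Bmpr1a, Bmpr2 and Grem1) and the SMAD box in 2 of the 8 (Id3 and Grem1). Of all 32851 promoters of this length, 9.6% held GGCGCC and 42.2% held CAGAC. The E-box, CANNTG, was searched too and was in 2 of the 8, against 66.2% of all promoters. The 8 windows were 62.8% to 78.8% G and C, and promoters of like GC content were not compared. The promoters of 4 genes, shown because their levels set tumors or lines apart, follow 5′ to 3′. They are in lower case with each GGCGCC and SMAD box in capitals, and no match of these overlapped another. They lie at chr12:25096093-25096342 on the minus strand (Id2), chr4:136143572-136143821 on the plus strand (Id3), chr9:64022060-64022309 on the minus strand (Smad6) and chr2:113758649-113758898 on the minus strand (Grem1).
Id2: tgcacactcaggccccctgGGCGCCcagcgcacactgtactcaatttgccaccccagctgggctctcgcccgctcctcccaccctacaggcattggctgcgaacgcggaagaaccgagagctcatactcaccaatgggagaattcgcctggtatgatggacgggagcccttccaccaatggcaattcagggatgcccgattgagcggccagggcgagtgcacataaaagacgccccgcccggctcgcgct
Id3: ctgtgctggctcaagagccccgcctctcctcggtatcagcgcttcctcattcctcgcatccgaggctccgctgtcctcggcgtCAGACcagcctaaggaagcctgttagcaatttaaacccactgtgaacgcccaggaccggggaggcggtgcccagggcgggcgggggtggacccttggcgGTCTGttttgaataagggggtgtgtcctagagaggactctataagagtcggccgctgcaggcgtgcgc
Smad6: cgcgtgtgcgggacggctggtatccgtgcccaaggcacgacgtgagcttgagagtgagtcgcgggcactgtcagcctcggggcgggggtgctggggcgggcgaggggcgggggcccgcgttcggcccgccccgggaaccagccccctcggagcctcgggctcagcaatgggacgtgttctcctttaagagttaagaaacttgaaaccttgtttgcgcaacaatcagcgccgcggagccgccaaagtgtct
Grem1: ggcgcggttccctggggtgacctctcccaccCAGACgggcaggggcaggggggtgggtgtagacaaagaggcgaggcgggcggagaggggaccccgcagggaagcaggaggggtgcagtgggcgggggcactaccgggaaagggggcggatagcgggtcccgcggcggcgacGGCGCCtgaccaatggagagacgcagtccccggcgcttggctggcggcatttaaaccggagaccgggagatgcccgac
The GGCGCC of Id2 began 231 bases before the start and that of Grem1 78 bases before it, while the Smad6 window held none of the motifs. A match to letters is a description of the window and not a measured binding site.

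Facts of the libraries that touch these genes are as follows. Of 11 colon epithelial markers, only Cdh1 reached a mean of 1 TPM in the resistant tumors and in the parental tumors, none did in resistant culture, and Krt20 alone did in parental culture, so the labelled tissue could not be recognised from its markers. Tumors also held host cells. The summed level of 16 leukocyte markers was 497–915 TPM in resistant tumors and 412–1770 TPM in parental tumors, against 20.5–134 TPM in resistant culture and 3.35–6.38 TPM in parental culture. That of 10 fibroblast and pericyte markers was 931–2322 TPM in resistant tumors, 286–1614 TPM in parental tumors, 285–874 TPM in resistant culture and 80.3–125 TPM in parental culture. That of 12 endothelial markers was 116–227 TPM in resistant tumors and 117–222 TPM in parental tumors, against 8.19–25.4 TPM and 12.8–19.9 TPM in resistant and parental culture, and none of these markers was at 0 throughout either tumor group. Cultured cells had some of these markers too. Mean Dcn was 589 TPM and mean Laptm5 79.7 TPM in resistant culture, against 4.24 and 3.44 TPM in parental culture. The sums in tumors are thus not those of host cells alone. Between the lines in tumors, 10 of the 15 leukocyte markers tested were lower in resistant tumors. Of 10 fibroblast and pericyte markers 8 were higher, and of 12 endothelial markers 1 (Eng) was higher. Of 8 fibroblast and pericyte markers tested in culture, 2 were higher in the resistant line and 1 was lower. Of all genes tested in tumors, 16.3% were higher and 13.9% lower. Of 9 skeletal muscle markers tested, 4 were higher and none lower, and their summed level was 3.55–229 TPM in resistant tumors and 3.97–87.6 TPM in parental tumors. Mitochondrial transcripts made up a median of 9.53% of TPM in resistant tumors and 7.48% in parental tumors. The part of these differences in the results was not tested. In bulk tumor RNA, fewer cells of a type and less RNA per cell cannot be told apart. Finally, 4 parental tumors stood apart in the balance of GC-rich against GC-poor transcripts: their GC index, the median log2 deviation of GC-rich transcripts minus that of GC-poor ones, was above 0.5, whereas the highest value in any resistant tumor was 0.258.

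**Figure D1:**
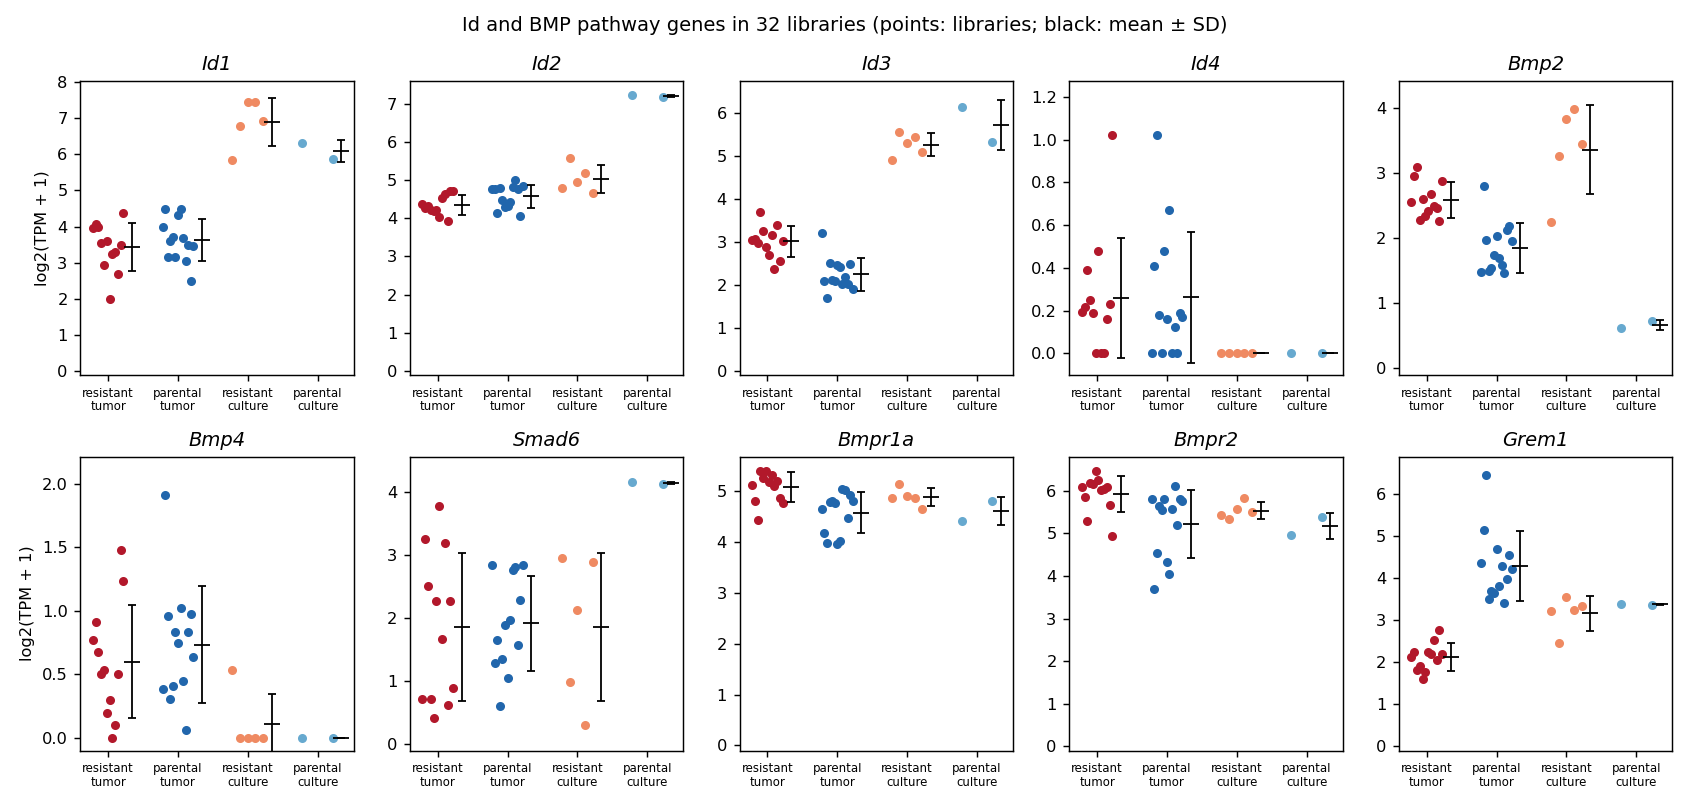
Levels of the 10 genes, as log2(TPM + 1), in resistant tumors, parental tumors, resistant culture and parental culture; each point is 1 library and the black bar is the mean ± SD beside it. Id1 and Id3 are lower in every tumor than in every culture of the same line, Id2 and Smad6 are highest in parental culture, and Grem1 is lower in all 12 resistant tumors than in all 13 parental tumors.

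Id1 and Id3 were lower in tumors than in culture in both lines, without overlap. Id1 ranged over 2.99, 10.5 and 19.8 TPM (lowest, median, highest) in resistant tumors and over 4.62, 11.2 and 21.6 TPM in parental tumors. In resistant culture the 5 libraries had 56.3, 108, 173, 174 and 120 TPM, and in parental culture the 2 had 78.4 and 57.6 TPM. No tumor of either line reached the lowest culture of its own line. The mean of culture was 11.7 times that of tumors in the resistant line and 5.52 times in the parental line, and the log2 difference, tumor minus culture, was -3.46 ± 0.31 (SE) in the resistant line and -2.47 ± 0.40 in the parental line. This is the pattern by which Id1 was chosen.

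Id3, a close relative of Id1, was also lower in the tumors of both lines. By mean level the resistant line was above the parental line in tumors and below it in culture, where the lines overlapped. It ranged over 4.17, 7.21 and 11.9 TPM in resistant tumors and 2.23, 3.35 and 8.28 TPM in parental tumors, against 29.3, 46.4, 38.6, 42.9 and 33.3 TPM in resistant culture and 70.2 and 39.1 TPM in parental culture. Tumors and culture did not overlap in either line, with log2 differences of -2.26 ± 0.18 in the resistant line and -3.49 ± 0.32 in the parental line. Id2 ranged over 14.1, 18.6 and 25.4 TPM in resistant tumors and 15.6, 25.9 and 31.1 TPM in parental tumors. Its 5 resistant cultures had 26.7, 47.1, 29.8, 35.5 and 24.3 TPM, whereas the 2 parental cultures had 147 and 143 TPM. The tumors of both lines were thus near the resistant cultures in Id2, which overlapped the resistant tumors, while the parental cultures stood far above all other libraries. Id4 was at 0 in all 7 cultures and no higher than 1.03 TPM in either tumor group, with 3 resistant and 4 parental tumors at 0.

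Groups that did not overlap were common among all genes in these contrasts, which is the scale for reading the counts. Between resistant tumors and resistant culture, 2 of the 8 members that passed the low-value filter (Id1 and Id3) did not overlap, both lower in tumors, against 21.9% of all genes that passed, 17.3% higher and 4.61% lower. Between parental tumors and parental culture, 7 of 9 did not overlap, against 28.6% of all genes, 19.6% higher and 8.94% lower: Id1, Id2, Id3 and Smad6 lower in tumors, and Bmp2, Bmp4 and Grem1 higher. Only 2 parental cultures enter that contrast, and the choice of members used it, so nothing is read from these counts. The median log2 difference over all genes was 0.18 in the resistant line and 0.21 in the parental line; after quantile normalization these medians were -0.10 and -0.04. Relative to these medians, Id1 and Id3 kept their sign under each scaling. For Bmp2 the difference, tumor minus culture, was -0.77 ± 0.22 in the resistant line and 1.18 ± 0.31 in the parental line, and for Grem1 it was -1.04 ± 0.19 and 0.91 ± 0.53, so these genes of ligand and antagonist had opposite signs in the 2 lines. Quantile normalization moved Bmp2 to -1.29 and 0.26 and Grem1 to -1.65 and 0.62, with the signs as before. For the receptors the differences were small: 0.19 ± 0.14 and -0.04 ± 0.29 for Bmpr1a, and 0.39 ± 0.19 and 0.05 ± 0.51 for Bmpr2, in the resistant and the parental line. Of other BMP targets, 5 of 8 overlapped between tumors and culture in the resistant line and 8 of 10 in the parental line. Smad9 (a BMP-activated SMAD) and Atoh8 (a helix-loop-helix factor) were below every culture in the tumors of both lines, and Bambi (a decoy receptor) was above every culture in the resistant tumors. The endothelial receptors Acvrl1 and Eng were above every culture of the same line in the tumors of both lines.

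The makeup of the Id pool differed by group too. The summed level of the 4 Id genes was 37.9 ± 7.3 TPM in resistant tumors (SD, n = 12) and 39.8 ± 7.9 TPM in parental tumors (n = 13), against 197 ± 56.1 TPM in resistant culture (n = 5) and 268 ± 39.8 TPM in parental culture (n = 2). Id1 made up 27.2% ± 8.3 of that sum in resistant tumors and 30.1% ± 9.0 in parental tumors, compared with 62.4% ± 9.8 in resistant culture and 25.3% ± 1.8 in parental culture. Id2 made up 52.3% ± 7.7 in resistant tumors, 59.2% ± 9.0 in parental tumors, 17.5% ± 5.6 in resistant culture and 54.7% ± 7.0 in parental culture. Id2 was thus the most abundant Id gene in 3 of the groups and Id1 in resistant culture. Id3 made up 19.9% ± 6.7 in resistant tumors and 10.04% ± 3.71 in parental tumors, against 20.2% ± 4.3 in resistant culture and 20.01% ± 5.23 in parental culture.

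**Figure D2:**
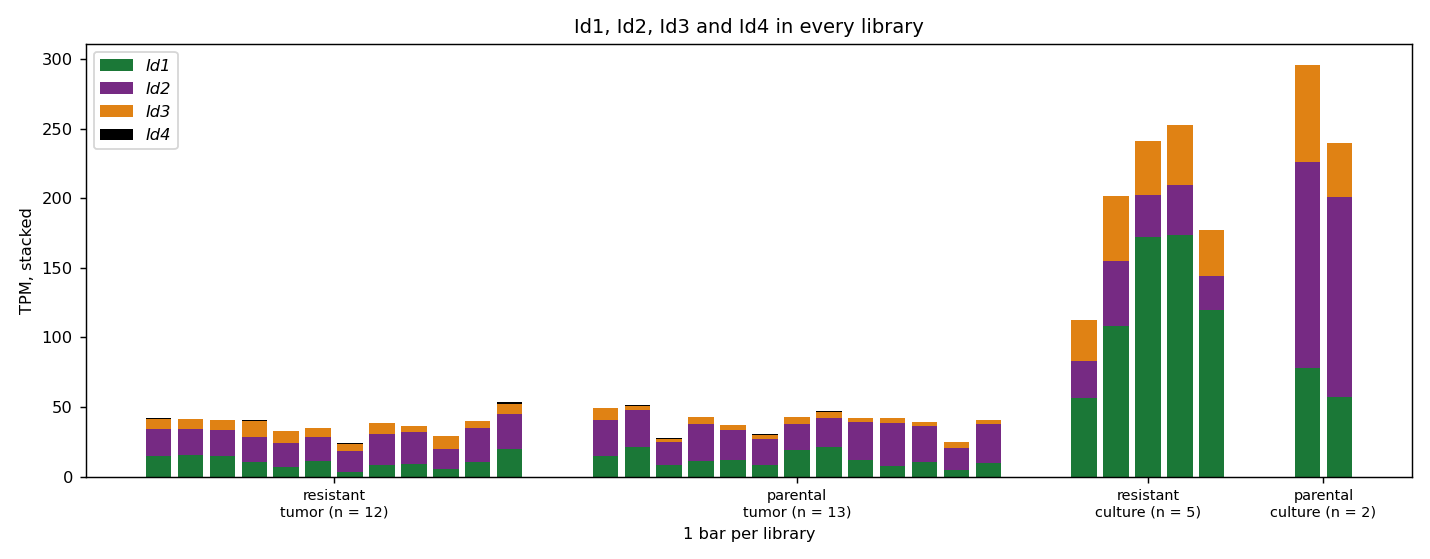
Stacked levels in TPM of Id1, Id2, Id3 and Id4, with 1 bar per library, for resistant tumors, parental tumors, resistant culture and parental culture. The tumor bars end between 24.1 and 53.3 TPM and the culture bars between 112 and 296 TPM, and the Id1 segment is the largest in every resistant culture.

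The resistant and parental tumors were compared with limma on log2(TPM + 1), with p-values adjusted by the Benjamini-Hochberg method over all 12095 genes tested. Of the 8 members tested, 4 were higher in resistant tumors (Id3, Bmp2, Bmpr1a, Bmpr2), 1 was lower (Grem1) and 3 were not called (Id1, Id2, Smad6), against a background of 30.2% of all genes called, 16.3% higher and 13.9% lower. Bmp4 and Id4 were too low to be tested. The antagonist Grem1 had the largest difference. It ranged over 2.03, 3.46 and 5.84 TPM in resistant tumors and 9.64, 17.7 and 85.6 TPM in parental tumors, so that the highest resistant tumor was below the lowest parental one. Its log2 difference was -2.16 ± 0.24 (limma adjusted p = 2.09e-07), and the groups of 1.04% of all genes tested did not overlap, 0.496% higher and 0.546% lower. The tumor at 85.6 TPM was 1 of the 4 parental tumors of high GC index; without these 4 the difference was -1.84 ± 0.16 (adjusted p = 1.61e-08).

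The ligand Bmp2 differed in the opposite direction. It ranged over 3.79, 4.76 and 7.56 TPM in resistant tumors and 1.77, 2.34 and 6.02 TPM in parental tumors, with a log2 difference of 0.74 ± 0.14 (limma adjusted p = 0.0003). All 12 resistant tumors were above the parental mean, although 1 parental tumor, also of high GC index, lay within the resistant range. The ratio of Grem1 to Bmp2 was 0.717 ± 0.319 in resistant tumors and 8.31 ± 6.59 in parental tumors (SD, n = 12 and 13). It was 0.999 ± 0.684 in resistant culture (n = 5) and 14.2 and 17.8 in the 2 parental cultures. On this per-length scale the mean level of the antagonist's transcript was thus above that of the ligand's in parental tumors and in parental culture.

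Among the Id genes, Id3 rose in resistant tumors by 0.77 ± 0.15 on the log2 scale (limma adjusted p = 0.000392), with all 12 tumors above the parental mean. A single parental tumor at 8.28 TPM was above the resistant median, and the other parental tumors were at 4.66 TPM or less. Id1, at 10.8 ± 4.8 TPM in resistant tumors and 12.3 ± 5.4 TPM in parental tumors, was not called (log2 difference -0.20 ± 0.24, adjusted p = 0.558), and its sign changed without the 4 parental tumors of high GC index (0.02 ± 0.24). Id2, at 19.6 ± 3.7 TPM and 23.3 ± 4.9 TPM in resistant and parental tumors, was not called either (-0.23 ± 0.12, adjusted p = 0.132). Smad6 varied widely among tumors of the same line. It ranged over 0.337, 2.99 and 12.6 TPM in resistant tumors and 0.518, 2.70 and 6.17 TPM in parental tumors (log2 difference -0.06 ± 0.36, adjusted p = 0.92), and the sign of that difference changed when single tumors were left out.

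Both receptors were called higher in resistant tumors, but these calls were lost without the 4 parental tumors of high GC index. Bmpr1a, a type I receptor, ranged over 20.6, 34.3 and 40.97 TPM in resistant tumors and 14.5, 26.0 and 31.8 TPM in parental tumors (0.50 ± 0.14, limma adjusted p = 0.00764). Bmpr2, the type II receptor, ranged over 29.6, 65.9 and 87.1 TPM in resistant tumors and 11.9, 46.5 and 68.4 TPM in parental tumors (0.70 ± 0.24, adjusted p = 0.0269). The 4 parental tumors of high GC index held 14.5–16.9 TPM of Bmpr1a and 11.9–22.4 TPM of Bmpr2, below all other parental tumors at 21.1–31.8 TPM and 35.8–68.4 TPM. Without them the differences were 0.26 ± 0.11 for Bmpr1a (adjusted p = 0.0846) and 0.23 ± 0.15 for Bmpr2 (adjusted p = 0.279), and neither was called. With the GC index as a covariate they were 0.17 ± 0.07 (adjusted p = 0.0685) and 0.10 ± 0.10 (adjusted p = 0.473). The longest transcripts of both receptors have the lowest GC content among the 10 genes, 41.3% or less. This is under the 0.42 that defines GC-poor transcripts, so both receptors are among the genes from which the index was computed. Their low level in the 4 tumors was thus partly fixed by how those tumors were picked. The share of other GC-poor genes that set these tumors apart is not given. Id3, Bmp2 and Grem1 remained called under both of these settings.

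**Figure D3:**
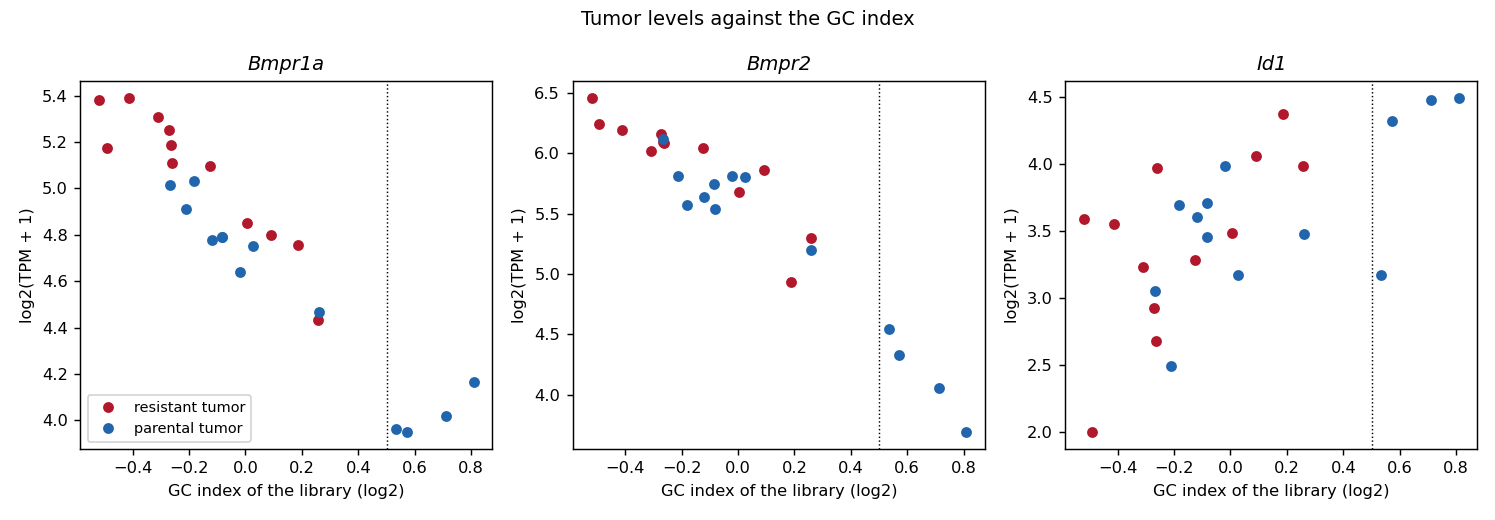
Level of Bmpr1a, Bmpr2 and Id1, as log2(TPM + 1), against the GC index of each tumor library on a log2 scale; each point is 1 tumor, in red for resistant and blue for parental, and the dotted line marks an index of 0.5. In both lines the receptors are lower in tumors of higher GC index, and the 4 parental tumors right of the line have the lowest receptor levels. Both receptors are among the GC-poor genes that define the index.

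In culture the lines differed in Bmp2 and Id2. Of 8 tested, Bmp2 was higher in resistant culture, Id2 was lower and 6 were not called, against 14.2% of 11201 genes called, 6.15% higher and 8.04% lower. The 5 resistant cultures had 3.77, 8.64, 13.3, 14.9 and 9.97 TPM of Bmp2, against 0.531 and 0.653 TPM in the parental cultures. The ratio of means was 17.1, over parental values below the 1 TPM of the filter. Bmp2 thus passed the filter through the resistant cultures alone, the group where it was high, and its call is given as a description. The log2 difference was 2.69 ± 0.42 (limma adjusted p = 0.00398). It was not called when either parental culture was left out (adjusted p = 0.067 and 0.0601). Id2 was lower by the values given above, -2.16 ± 0.24 (adjusted p = 0.000817), and was called with each library left out in turn.

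Smad6 had 6.71, 0.991, 3.36, 0.238 and 6.40 TPM in resistant culture, against 16.8 and 16.4 TPM in parental culture. All 5 resistant cultures were below both parental ones, yet the difference of -2.28 ± 0.67 missed the threshold (limma adjusted p = 0.0511). It passed without resistant culture replicate 1 (adjusted p = 0.0258) or replicate 5 (adjusted p = 0.0435). Bmp2, Id2 and Smad6 were the 3 members whose culture groups did not overlap, and 33.6% of all genes were alike in this with these few libraries, 15.9% higher and 17.7% lower. The difference in Id1 was 0.79 ± 0.39 (adjusted p = 0.207) and passed without resistant culture replicate 1, its lowest (1.053, adjusted p = 0.0176). Id3, Bmpr1a, Bmpr2 and Grem1 had differences of -0.47 to 0.36 and were not called; Grem1, which set the tumors apart, was at 8.25, 4.53, 10.6, 8.44 and 9.13 TPM in resistant culture and 9.45 and 9.27 TPM in parental culture. Bmpr1a was at 27.7, 33.8, 28.8, 28.02 and 23.8 TPM in resistant culture and 20.2 and 26.8 TPM in parental culture, and Bmpr2 at 42.4, 39.1, 46.6, 56.2 and 44.5 TPM in resistant culture and 29.95 and 41.02 TPM in parental culture, so the groups of both receptors overlapped. Bmp4 was at 0.449 TPM in 1 resistant culture and at 0 in the other cultures.

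Whether the line difference itself differed between tumors and culture was tested as an interaction in 1 limma fit over all 32 libraries, which shares its libraries with the comparisons above. Of the 10 members, 2 were higher and 2 lower, against 4.01% of 15061 genes called, 2.4% higher and 1.61% lower. For Id2 the interaction was 1.92 ± 0.28 on the log2 scale (limma adjusted p = 1.37e-05). Its line difference was -0.23 in tumors, where it was not called, and -2.16 in culture, so the difference was smaller in tumors. For Id3 the interaction was 1.24 ± 0.35 (adjusted p = 0.0321), with the line difference positive in tumors and negative, but not called, in culture. For Bmp2 the interaction was -1.96 ± 0.38 (adjusted p = 0.000947): Bmp2 was higher in the resistant line both in bulk tumors and in culture, and the difference was smaller in tumors. For Grem1 it was -1.95 ± 0.53 (adjusted p = 0.0249). The call for Id3 was lost without parental culture replicate 1 (adjusted p = 0.438), resistant culture replicate 1 (0.0557) or resistant culture replicate 5 (0.06), and that for Grem1 without parental culture replicate 1 (0.126), parental culture replicate 2 (0.226) or resistant culture replicate 3 (0.0519). The interaction for Id1 was -0.99 ± 0.55 (adjusted p = 0.421) and that for Smad6 2.23 ± 0.86 (adjusted p = 0.164).

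**Figure D4:**
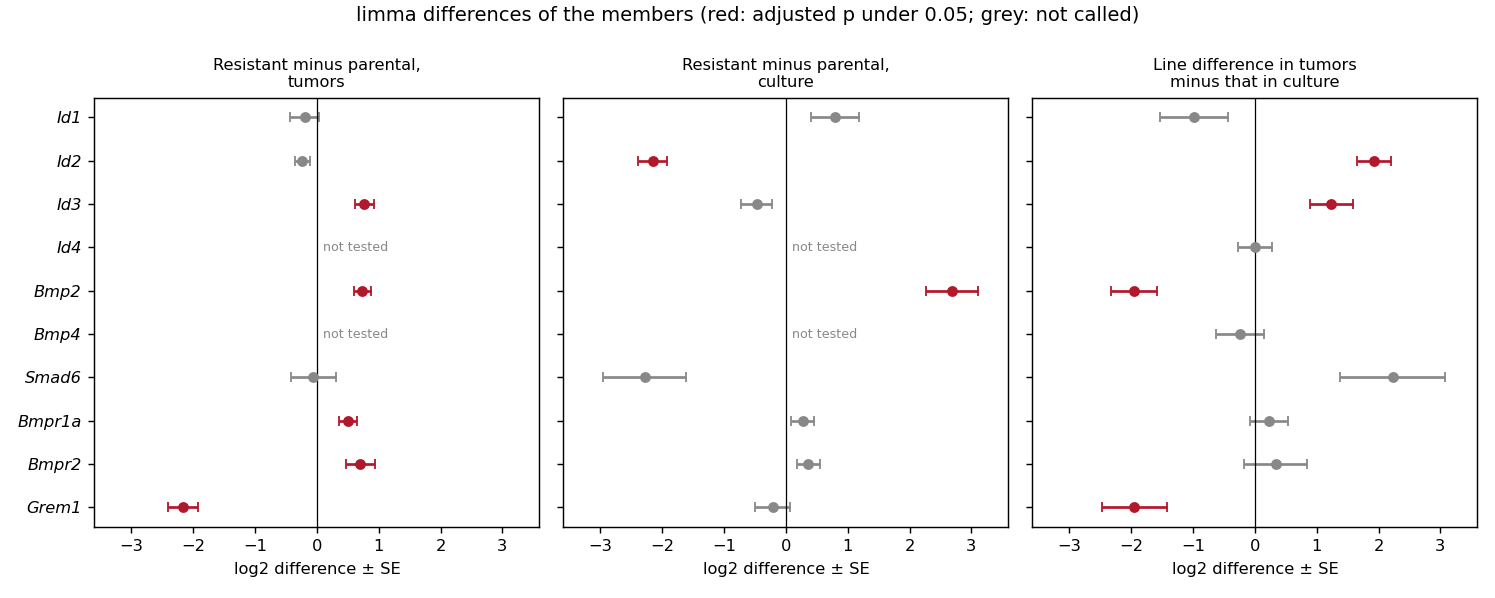
Differences of the 10 genes with their SE, as log2 of TPM + 1, for resistant minus parental tumors, resistant minus parental culture, and the interaction of line and setting; red points had a limma adjusted p under 0.05. Grem1 stands at -2.16 in tumors and -0.21 in culture, Id2 at -0.23 in tumors and -2.16 in culture, and Bmp2 is above 0 in both.

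Other genes of the pathway were read from lists of ligands, receptors, antagonists, SMADs, targets and E proteins. Of all genes tested, 30.2% were called in tumors and 14.2% in culture, which is the scale for the counts in these short lists. Unlike for the members, calls of the listed genes without the 4 parental tumors of high GC index are not reported here. The same holds for their calls with the GC index as a covariate. Among ligands, 1 of 12 was high enough to test in tumors: Bmp7, at 2.34 ± 1.12 TPM in resistant tumors and 0.696 ± 0.584 TPM in parental tumors, rose (0.98 ± 0.18, limma adjusted p = 0.000149). In culture 2 were tested and Bmp5 fell: it was at 0.0140 ± 0.0313 TPM in resistant culture, against 3.50 and 5.83 TPM in parental culture (-2.45 ± 0.28, adjusted p = 0.00105). Parental tumors held no more than 0.907 TPM of Bmp5, and its interaction was 2.31 ± 0.25 (limma adjusted p = 8.71e-08). Bmp5 reached 1 TPM in the 2 parental cultures and in no other library. It thus passed the filter only through the group where it was high, and nothing is read from these 2 calls. Calls with either parental culture left out are not reported here.

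Of 8 other receptors and coreceptors tested in tumors, 1 was higher and 2 were lower, against 16.3% and 13.9% of all genes. Their median log2 difference was 0.19 beside 0.04 over all genes. Tgfbr3 (betaglycan, a coreceptor that binds TGF-beta and BMPs) was at 2.75 ± 1.08 TPM in resistant tumors and 14.7 ± 6.92 TPM in parental tumors (-1.98 ± 0.22, limma adjusted p = 1.51e-07), and it also fell in culture (-1.96 ± 0.56, adjusted p = 0.0477). Eng (endoglin, a coreceptor of BMP9 on endothelium) was higher in resistant tumors by 0.48 ± 0.10 (adjusted p = 0.000454) and in resistant culture by 1.91 ± 0.49 (adjusted p = 0.0322). Acvrl1 (ALK1, the type I receptor of that ligand) was lower in resistant tumors by a log2 difference of -0.73 ± 0.21 (adjusted p = 0.0104).

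Of 8 other secreted antagonists and decoys tested in tumors, 1 was higher (Twsg1, 0.31 ± 0.08, limma adjusted p = 0.00604) and none was lower. Grem1 was thus the 1 antagonist called lower among those tested, and the rest of the 18 others listed were too low to test. Of 6 tested in culture, Crim1, which binds BMPs at the cell surface, fell (-1.02 ± 0.21, adjusted p = 0.0144). The 6 other SMADs and SMAD ubiquitin ligases tested in tumors had a median log2 difference of 0.26. Of them, 3 were higher and none lower, against 16.3% and 13.9% of all genes. These were Smad4, the common partner (0.50 ± 0.09, adjusted p = 0.000221), Smad1, a BMP-activated SMAD (0.34 ± 0.09, adjusted p = 0.00642), and Smad7, an inhibitory SMAD (1.01 ± 0.22, adjusted p = 0.000867). Smad7 was at 49.8 ± 21.4 TPM in resistant tumors and 23.4 ± 7.99 TPM in parental tumors, whereas its fellow inhibitor Smad6 was not called. In culture Smad1 (0.92 ± 0.23, adjusted p = 0.0301) and the ubiquitin ligase Smurf1 (0.996 ± 0.167, adjusted p = 0.00532) were higher, and Smad9 was lower (-0.93 ± 0.27, adjusted p = 0.0481).

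Of 6 other BMP target genes tested in tumors, 2 were higher (Smad7 again, and Hey1) and 1 was lower (Dlx2), against 16.3% and 13.9% of all genes. Hey1, a repressor that Notch also induces, was at 12.1 ± 5.32 TPM in resistant tumors and 4.98 ± 5.14 TPM in parental tumors (1.30 ± 0.30, limma adjusted p = 0.00179). Dlx2, a homeobox factor, was at 3.07 ± 1.71 TPM in resistant tumors and 8.66 ± 3.83 TPM in parental tumors (-1.25 ± 0.21, adjusted p = 5.17e-05). The other 3 listed targets tested were not called. Together with the members, the targets Id3, Smad7 and Hey1 were thus higher, Dlx2 was lower, and Id1, Id2 and Smad6 were among those not called. Of the 3 E proteins that Id proteins bind, Tcf4 (0.61 ± 0.12, adjusted p = 0.000483) and Tcf12 (0.39 ± 0.09, adjusted p = 0.00286) were higher in resistant tumors, and Tcf4 was higher in resistant culture (1.01 ± 0.24, adjusted p = 0.0231).

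Within each tumor group, 11 relations among these genes and an endothelial score (mean log2(TPM + 1) of 12 endothelial markers) were computed, 22 in all, with permutation p-values adjusted over the 22. None passed by Pearson's r. Id1 rose with the endothelial score across the 12 resistant tumors by rank, with Spearman's rho of 0.84 (permutation p = 0.00104, adjusted p = 0.0229) and Pearson's r of 0.71 (permutation p = 0.00962, adjusted p = 0.106). Without the 2 tumors farthest from the median score r was 0.84 (permutation p = 0.00239, adjusted p = 0.0526) and rho was 0.86 (permutation p = 0.00297, adjusted p = 0.0653), so the call by rank was lost over these 10 tumors. The GC index moved with both: the 3 resistant tumors of highest score, at 3.813, 3.613 and 3.463, were also those of highest GC index, at 0.258, 0.187 and 0.092, and its part in this relation was not tested. Across the 13 parental tumors rho was 0.25 (permutation p = 0.403, adjusted p = 0.739) and r was 0.29 (permutation p = 0.332, adjusted p = 0.73). Without the 2 parental tumors farthest from the median score r was 0.52 and rho was 0.47, and neither was called. Without the 4 parental tumors of high GC index, a choice made after seeing the data, r was 0.05 and rho was -0.07. Whether the 2 groups differ in this relation was not tested. The score was 3.21 ± 0.32 in resistant tumors and 3.12 ± 0.25 in parental tumors, against 0.622 ± 0.191 in resistant culture and 0.586 ± 0.163 in parental culture, the groups in which Id1 was highest. Id3 and Smad6 had r of -0.71 (permutation p = 0.00922, adjusted p = 0.106) and rho of -0.68 (permutation p = 0.0186, adjusted p = 0.136) in resistant tumors, and r of 0.09 (permutation p = 0.772, adjusted p = 0.935) in parental tumors.

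**Figure D5:**
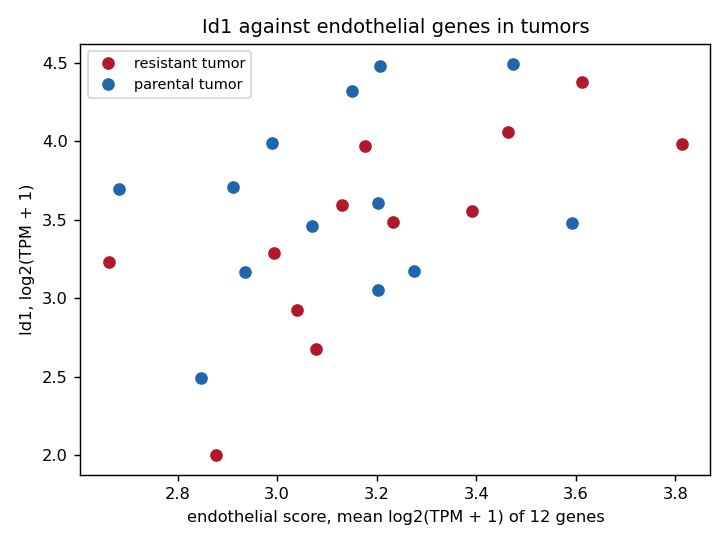
Level of Id1 as log2(TPM + 1) against the endothelial score, the mean log2(TPM + 1) of 12 endothelial genes, in resistant tumors (red) and parental tumors (blue); each point is 1 tumor. The resistant tumors spread over scores of 2.66 to 3.81 with higher Id1 at higher scores, and the parental tumors over 2.68 to 3.59 with a looser spread.

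Genes whose levels closely resembled those of Id1 over the 12 resistant and 13 parental tumors, by the mean of Pearson's r in the 2 groups among 9482 genes, were Ncdn (r of 0.78 in resistant tumors and 0.92 in parental tumors), Akr1b3 (0.82 and 0.87), Ncln (0.80 and 0.80) and Parp3 (0.80 and 0.79). For Id3, ranked among 9483 genes, they were Antxr2 (0.62 and 0.73), Med28 (0.75 and 0.54), Tor2a (0.64 and 0.60), Tfb1m (0.53 and 0.70) and Pramef12 (0.69 and 0.51). These values are descriptions, and the lists for Id1 and Id3 have no gene in common. The r of Id1 itself with the GC index was 0.64 in resistant tumors and 0.67 in parental tumors. The part of the GC index in these values was not tested.

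By mean level, the order in resistant tumors was Bmpr2, Bmpr1a, Id2, Id1, Id3, Bmp2, Smad6, Grem1, Bmp4 and Id4. In parental tumors Grem1 came just after Bmpr2, Bmpr1a and Id2, whose means of 23.4 and 23.3 TPM for Bmpr1a and Id2 differed by less than their SDs of 6.29 and 4.88. In resistant culture Id1 came first at 126 ± 49.2 TPM, and Id3 at 38.1 ± 6.96 TPM and Id2 at 32.7 ± 9.07 TPM followed Bmpr2 within their spread. In parental culture Id2 came first at 145 ± 3.07 TPM, ahead of Id1 at 68.0 ± 14.7 TPM and Id3 at 54.6 ± 21.96 TPM, which overlapped. Id1 and Id2 were thus each first in 1 culture group, and the receptors led in both tumor groups.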

How the data were processed

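The data are 1 table of TPM values that the authors deposited for 32 libraries of polyA RNA, prepared with KAPA RNA Hyperprep kits per the labels. The submitters' processing notes name STAR and GRCh38, a human build, without a role; 98.4% of the table's gene symbols are in the mouse GENCODE M21 annotation. The quantification tool and gene annotation are not given in the sources used here. TPM hold no read totals, so depth is unknown and no counting interval is given. Tests were made in R 4.3.3 by limma 3.58.1, with a mean-variance trend, on values of log2(TPM + 1). A gene was tested if at least 1 TPM was reached by a number of libraries no less than the size of the smaller group; fold changes on this scale understate those of low genes. Benjamini-Hochberg adjustment ran over all genes tested, with a threshold of 0.05. Each comparison was fitted on its own libraries, and the interaction on all 32. Correlations used 100000 permutations. GC content came from the longest GENCODE transcript, GC-rich meaning over 0.55 and GC-poor under 0.42, among genes with a mean of 5 TPM in tumors. Groups came from the sample descriptions; replicate numbers follow accession order and pair nothing. All 10 members are named, with up to 4 called genes per pathway list and comparison and genes among the 5 most like Id1 and the 5 most like Id3; some genes under this rule are not reported here. The members and lists were chosen with earlier results of these data known. Scripts were tested on simulated data. Alternatives were another pseudocount, other filters, scalings, moderation, weights, a GC covariate, sets of libraries left out and a fit over all libraries.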

Additional observations from a re-analysis of the deposited data

Results flagged for a closer look

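The members Id2, Id3, Bmp2 and Grem1 had a line difference (resistant minus parental) in tumors that was not the same as that in culture, by the limma interaction over all 32 libraries. The difference between the 2 was 1.923 on the log2 scale for Id2 and 1.235 for Id3, and it was -1.956 for Bmp2 and -1.950 for Grem1. These 4 values are the results given above, and the calls for Id3 and Grem1 depended on single culture libraries as stated there.

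Bmp4 was at 0.4493 TPM in resistant culture replicate 1 and at 0 in the other resistant cultures, so that Dixon's criterion marked 1 library in this group of 5. With the other libraries at 0, any value above 0 would have been marked, so the mark carries no weight. It was 1 of 18 checks in this group, and the criterion marks about 1 group in 20 by chance. The same library had the lowest Id1 and the lowest Bmp2 of the 5.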

How the results depend on the processing

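In tumors, Grem1 was called under all alternatives, and Id3 and Bmp2 under all but the filter at 5 TPM, where they were not tested. The number of members called was 5; it was 3 without the 4 parental tumors of high GC index, 3 with a GC covariate and 3 with the filter at 5 TPM. Id1, never called there, turned to 0.02 (0.022) without the 4 tumors and 0.20 (0.202) with the covariate. Smad6 turned to 0.05 (0.047) after quantile normalization and ranged from -0.232 to 0.072 with single libraries left out. Id2 was called with array weights (-0.30, limma adjusted p = 0.0397). In culture, 1 to 4 members were called with single libraries left out (2 with all), and 578 to 2116 genes (1590 with all): 813 and 578 without parental culture replicates 1 and 2, and 1031 without resistant culture replicate 4. Smad6 passed in a fit over all libraries (adjusted p = 0.0469). For the interaction, the genes called were 604, against 1395 with array weights, 982 with the GC covariate and 242 to 714 with single libraries left out; members called then ranged from 2 to 4. Uncalled interactions changed sign: Id4 to 0.059 (pseudocount 0.1), 0.043 (quantile), 0.013 (array weights), 0.150 (GC covariate) and -0.024 to 0.032 (libraries left out); Bmp4 to 0.067 (GC covariate); Bmpr1a to -0.005 and -0.082, and Bmpr2 to -0.136 and -0.246, without the 4 tumors and with the covariate. Id3 had an adjusted p of 0.0562 after quantile normalization. The Spearman relations called were 1, and 0 without the 2 samples farthest from the median, where the r of Id3 and Smad6 in parental tumors turned to -0.452. Leaving out the 4 tumors in the correlations was chosen after seeing the data. Where a parental culture was left out, the lone library was assumed to vary like the other groups. Causes were not tested. No paired analysis was possible because the labels carry no replicate numbers. The 5 tested cultures of 1 line against 2 of the other, and low TPM of Bmp4 and Id4, limit what could be called.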

Other observations

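In the 5 resistant cultures, Id1 and Bmp2 had the same order of levels. Replicate 1 had 56.3 TPM of Id1 and 3.77 TPM of Bmp2, replicate 2 had 108 and 8.64 TPM, replicate 5 had 120 and 9.97 TPM, replicate 3 had 173 and 13.3 TPM, and replicate 4 had 174 and 14.9 TPM. This order was seen after the values were known and was not tested, and 5 libraries are too few for a correlation to be given. Smad6 did not share the order, with 0.238 TPM in replicate 4 and 6.71 TPM in replicate 1.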
